A study of Mus musculus with 18 samples.

Results

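The comparison of macrophages given STSABs with mock-treated macrophages used 8 of the 18 libraries of a study of mouse bone marrow macrophages, and all 16909 genes of the deposited table. The STSABs group (n = 5) received apoptotic bodies, vesicles that a cell breaks into as it dies, from cells the labels call hucMSC, which were mesenchymal stem cells per the series title and had been induced to die with STS, here taken as staurosporine, a broad kinase inhibitor. The Con group (n = 3) was the mock group. The study also holds an LPS group (n = 5), the positive control for inflammation, and a UVABs group (n = 5) given bodies from UV-induced cells, and names both kinds of body as anti-inflammatory treatments. All groups are bone marrow macrophages of mice, and the labels give no strain, genotype, age or sex. Nothing in the labels says whether the STSABs group also received LPS, which dose was used or how long the cells were exposed. The labels do not tie a replicate to a culture or an animal, so a p-value here is measured against the spread among libraries, which may be only technical. A difference between STSABs and Con is therefore a difference between those labelled groups, and the share of it that belongs to the bodies themselves was not tested.

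As background, macrophages sense microbial products such as LPS through Toll-like receptors, which signal through NF-kB and MAP kinases to cytokine and chemokine genes and through interferon regulatory factors to interferon beta and the genes it induces. Macrophages also take up dying cells and their fragments through receptors for phosphatidylserine and its bridging proteins, and the cargo is known to load them with lipids and amino acids and to dampen inflammatory output. Linolamide, which the series title names, is a fatty acid amide, a class of lipid that enzymes such as FAAH and NAAA break down.

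Estimated counts summed to between 18252486 and 18346832 per Con library and between 17588357 and 18675283 per STSABs library, so depth hardly differed between the groups. Levels are given as CPM, counts per 1000000 of a library size multiplied by its TMM scaling factor. These factors were 1.51 to 1.52 in Con and 0.924 to 0.94 in STSABs, so differences in CPM depend on them. Con replicates 1 to 3 and STSABs replicates 1 to 5 are given in that order. STSABs replicate 2 stood apart from the other 4, with a median distance to its group of 0.188 on the log2 scale against 0.0855 to 0.114, and the deviations of STSABs and UVABs replicate 2 from their groups correlated across genes (0.54, against 0.116 to 0.288 for the other same-numbered pairs). Macrophage markers were abundant in all libraries, with summed levels of 11304 to 12169 CPM in Con and 10467 to 11536 CPM in STSABs. Summed markers of neutrophils (1189 to 1485 CPM in Con, 3252 to 4715 in STSABs), of dendritic cells (1275 to 1438 and 5308 to 6413 CPM), of stromal cells (11.3 to 12.9 and 20.6 to 36.0 CPM) and of mast cells and basophils (108 to 122 and 694 to 996 CPM) were higher in every STSABs library than in every Con library. The same held for markers of endothelial cells and platelets (186 to 201 and 807 to 922 CPM in Con and in STSABs) and of erythroid cells (2.89 to 5.02 and 12 to 14.4 CPM). Summed osteoclast markers were lower in every STSABs library (526 to 534 CPM in Con, 336 to 371 in STSABs). Sums for T and NK cells overlapped between the groups (5.47 to 6.43 and 5.35 to 7.49 CPM). So did those for B and plasma cells (2.39 to 2.89 and 2.16 to 4.74 CPM). Most of the mast cell and basophil sum in STSABs was Hdc, and the erythroid markers Alas2 and Klf1 were absent or too low to test. The defining T cell markers Cd3d, Cd3e and Cd3g and the stromal markers Col3a1, Dcn and Pdgfra were absent or had too few counts to be tested. In bulk libraries fewer cells of a type and less RNA per cell cannot be told apart. Estimated counts of Actb, Hspa1a, Mgl2 and Tgtp1 were not whole in all 18 libraries, those of Ccr2 and Mertk in 17, of Ifit1, Iigp1 and Cd300a in 14, of Scd2 in 13 and of Amd1 in 11, so these genes may share reads with related sequences and their values are uncertain.

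Most of the transcriptome differed between the groups. Of 12465 genes tested 10302 (82.6%) passed, 4989 (40%) of them higher and 5313 (42.6%) lower in STSABs, by edgeR's quasi-likelihood F-test at a Benjamini-Hochberg adjusted p of 0.05. Of these, 2409 (19.3%) were higher and 2439 (19.6%) lower by at least 2-fold. Large changes were mostly increases, as the plot of called genes by size shows: 205 genes rose and 24 fell by 5 or more on the log2 scale, while 1249 rose and 1739 fell by between 1 and 2. The libraries of the groups did not overlap in 9673 genes (77.6%): in 4642 (37.2%) every STSABs library lay above every Con library, and in 5031 (40.4%) below. Along the main axis of variation among all libraries (principal component 1, 76.4% of the variance), Con lay at -138.8 to -137.8. On that axis LPS lay at 31.02 to 32.04, STSABs at 21.15 to 27.08 and UVABs at 22.84 to 26.99. The balance of small changes depended on how libraries were scaled, and the TMM scaling factors were 1.51 to 1.52 in Con and 0.924 to 0.94 in STSABs. The median log2 fold change over all genes was -0.04 with these factors, -0.02 with DESeq2 size factors, -0.31 with upper-quartile scaling and -0.74 with library totals alone, and the share of calls that were higher was 48.4%, 49.5%, 36.5% and 22.8%. Under all 4 scalings 2510 genes (20.1%) were higher and 5200 (41.7%) lower. With so many genes called, a list in which about 40 in 100 members rose or fell is at the level of all genes, and lists are described below by counts past 2-fold, medians and levels.

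**Figure D1:**
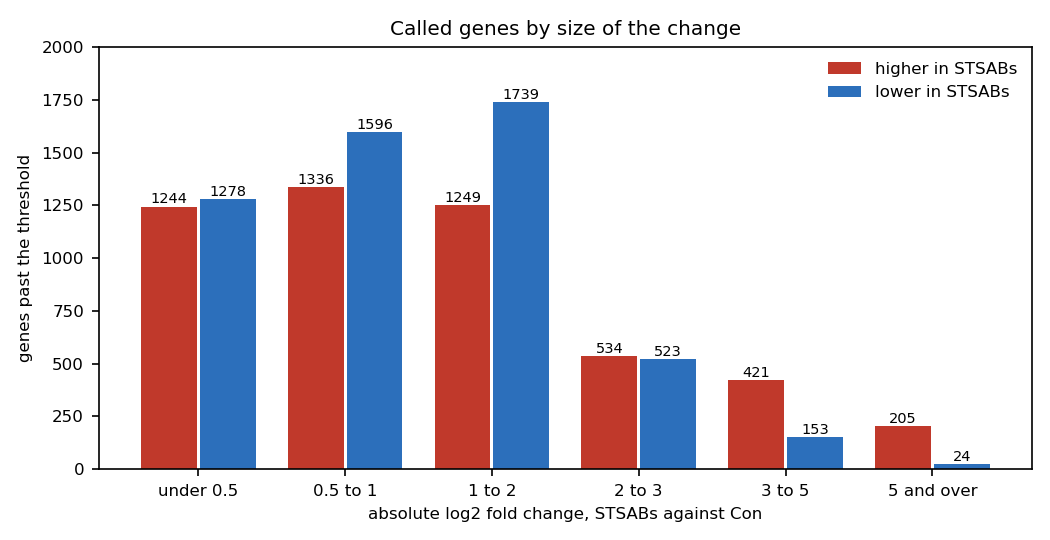
Number of genes past the threshold (y axis) by absolute log2 fold change of STSABs against Con (x axis), for genes higher (red) and lower (blue) in STSABs. Increases outnumber decreases in the classes from 3 upwards (421 against 153, and 205 against 24), and decreases outnumber increases between 0.5 and 2.

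**Figure D2:**
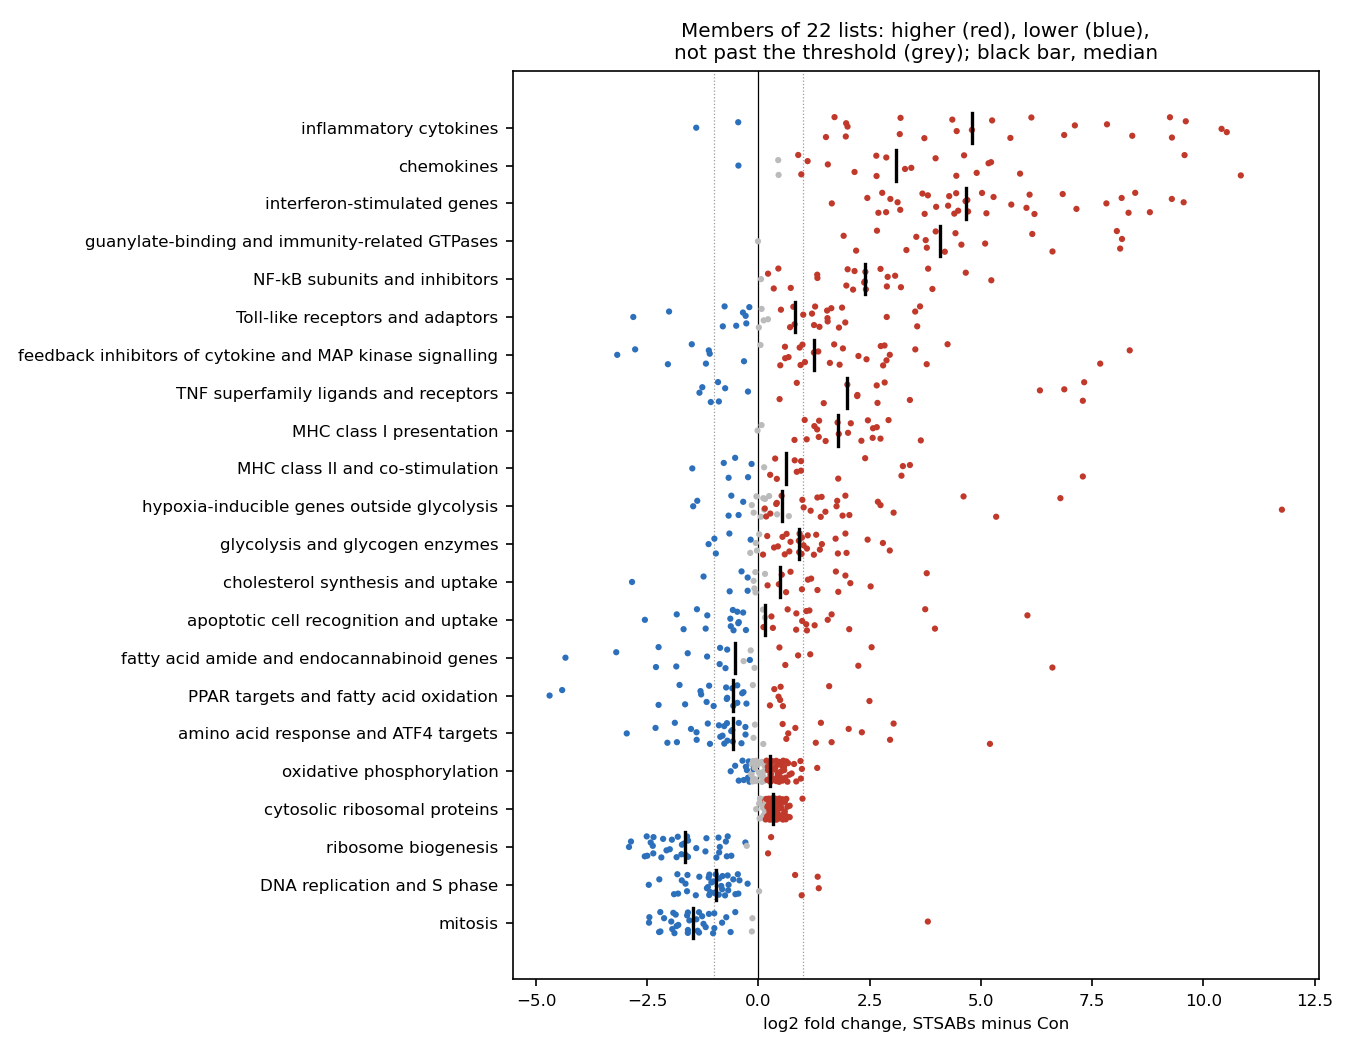
Each point is a tested member of a gene list, placed by its log2 fold change of STSABs minus Con (x axis, edgeR with TMM scaling). Red points passed the threshold upwards, blue points downwards, grey points did not pass, black bars are list medians and dotted lines mark a 2-fold difference. The interferon, GTPase, cytokine and chemokine lists have medians of 3.08 to 4.80, and the mitosis and ribosome biogenesis lists of -1.48 and -1.65.

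Inflammatory cytokine genes were among the most strongly raised. Of 25 tested members 23 rose and 2 fell, with 23 higher and 1 lower by at least 2-fold and a median log2 fold change of 4.80, beside -0.04 over all genes. Il6, a pro-inflammatory cytokine, was at 4.34, 3.36 and 3.69 CPM in Con and at 894, 795, 857, 931 and 863 CPM in STSABs (log2 fold change 7.83 ± 0.09, SE; edgeR quasi-likelihood Benjamini-Hochberg adjusted p = 3.81e-24). The 5 STSABs libraries lay close together and far above Con. Tnf was at 9.34, 10.3 and 10.7 CPM in Con and at 419.5, 292, 413, 399 and 405 CPM in STSABs (5.25 ± 0.15; edgeR adjusted p = 1.5e-18), with replicate 2 the lowest of the treated libraries and no overlap between groups. Il1b, which encodes the inflammasome substrate interleukin-1 beta, rose from 26.5, 31.0 and 24.4 to 3678, 4145, 3423, 3931 and 3721 CPM (7.11 ± 0.12). Il12b, a subunit of interleukins 12 and 23, was at 2.17, 2.02 and 2.24 CPM in Con and at 3190.5, 1621, 3192, 3399 and 3236 CPM in STSABs (10.41 ± 0.36), where replicate 2 had the lowest level, far from the other 4. Interleukin-27 subunit Il27 (8.40 ± 0.14) and Il1a (5.66 ± 0.12) rose as well. Il10, the main anti-inflammatory cytokine of macrophages, had 0 counts in Con and 11.2, 6.99, 11.7, 8.89 and 10.9 CPM in STSABs, at least 275-fold higher when the Con libraries are credited with 3 counts in all. Ifnb1, interferon beta, had 1 count in Con and 1.51, 1.34, 1.2, 1.34 and 1.17 CPM in STSABs, a ratio of 109 (95% counting interval 19.2 to 4342). The 2 members that fell were Il16 (-1.40 ± 0.11), a chemoattractant cytokine, and Tgfb1 (-0.46 ± 0.07), which encodes transforming growth factor beta 1.

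The same libraries of STSABs were set beside LPS, where 7158 genes (57.4%) were called and 28.4% of all genes were higher and 29% lower in STSABs. Of the cytokines 4 were higher and 11 lower in STSABs than in LPS. Il6 was at 1306, 1330, 1368, 1291 and 1399 CPM in LPS, above every STSABs library (STSABs minus LPS -0.63 ± 0.05; edgeR adjusted p = 1.82e-09), and Tnf (-0.67 ± 0.10), Il1a (-1.08 ± 0.08) and Il10 (-1.09 ± 0.13) were also below their LPS levels. Il27 (-0.04 ± 0.06; edgeR adjusted p = 0.571) and Nos2 (0.15 ± 0.12; edgeR adjusted p = 0.291) did not pass against LPS. The plot of 12 genes by library shows these levels in all 4 groups.

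**Figure D3:**
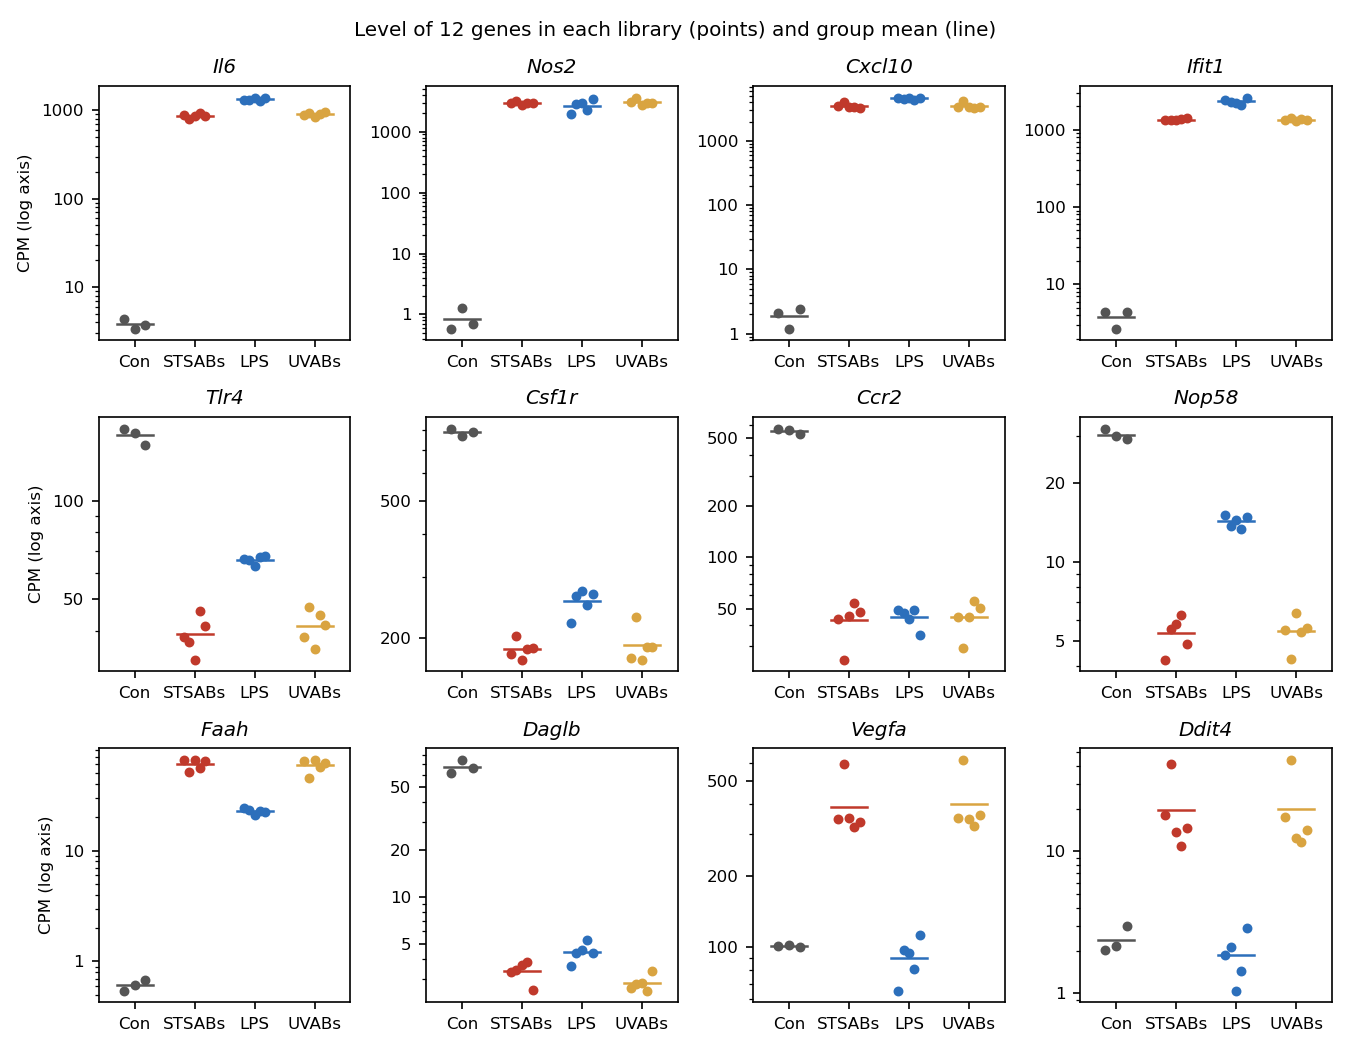
CPM on a log axis (y) of 12 genes in each library (points) of Con, STSABs, LPS and UVABs (x), with the group mean as a line. STSABs and Con do not overlap in any of the 12 genes, and STSABs replicate 2, the second red point, is the highest STSABs library in Vegfa (595 CPM) and Ddit4 (41.2 CPM).

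Chemokine genes, whose products attract leukocytes, rose in 19 of 22 tested members and fell in 1, with 17 higher by at least 2-fold and a median of 3.08. Cxcl10, an interferon-induced chemokine for T cells, was at 2.14, 1.19 and 2.39 CPM in Con and at 3522, 4011, 3378, 3353 and 3285 CPM in STSABs (10.84 ± 0.17; edgeR adjusted p = 4.69e-23). All 5 treated libraries lay far above Con, with replicate 2 the highest. Ccl5 (77.9, 75.3 and 94.5 CPM in Con and 4879, 5587, 5025, 4238 and 4593 in STSABs, 5.88 ± 0.14), Ccl4 (4.91 ± 0.10), the membrane-bound Cx3cl1 (3.44 ± 0.07) and the monocyte attractant Ccl2 (3.29 ± 0.14) rose. Ccl22, a ligand of CCR4, was at 378, 439.6 and 479 CPM in Con and at 17492, 16219.5, 16768, 14494 and 16003 CPM in STSABs (5.23 ± 0.10). Ccl6 was the member that fell (-0.45 ± 0.08). Against LPS 1 member was higher and 15 were lower, including Ccl2 (-1.46 ± 0.10), Ccl4 (-0.51 ± 0.07) and Cxcl10 (-0.39 ± 0.08), while Cx3cl1 was the higher one (0.20 ± 0.05). The receptors went in both directions: of 10 tested 4 rose and 5 fell, 4 and 4 by at least 2-fold, with a median of -0.48. Ccr2, the receptor that draws monocytes out of the marrow, was at 569.9, 558 and 527 CPM in Con and at 43.3, 25.0, 45.6, 54.0 and 47.8 CPM in STSABs (-3.68 ± 0.17; edgeR adjusted p = 6.88e-15), lowest in replicate 2. Ccr7, which guides activated dendritic cells and macrophages to lymph nodes, was at 135, 134 and 157 CPM in Con and at 3088, 3304, 2856, 2711 and 2876 CPM in STSABs (4.39 ± 0.09). Ccr7 is also on the list of dendritic cell markers, whose summed level rose with it, and the part of other cell types in this difference was not tested. The atypical receptor Ccrl2 (4.35 ± 0.09) and Cxcr5 (4.13 ± 0.20) rose too.

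Interferon-stimulated genes rose without exception among those tested: 36 of 36 were higher under all 4 scalings, all by at least 2-fold with TMM, with a median of 4.68 and a range from 1.65 to 9.56. Ifit1, an antiviral RNA-binding protein, was at 4.34, 2.67 and 4.37 CPM in Con and at 1314, 1339, 1308, 1364 and 1409 CPM in STSABs (8.47 ± 0.13; edgeR adjusted p = 4.69e-23), with no overlap and little spread among the treated libraries. Rsad2, the antiviral enzyme viperin, rose from 6.81, 3.79 and 5.78 to 3987, 4048, 3979, 4252 and 4334 CPM (9.56 ± 0.15). Oasl1 (9.29 ± 0.13), an inhibitor of interferon regulatory factor 7 translation, and Usp18 (6.02 ± 0.09), a brake on the interferon receptor, rose. The helicase Helz2 (5.31 ± 0.07), which is not on this list, rose too. Of 18 guanylate-binding proteins and immunity-related GTPases, which attack the vacuoles of intracellular pathogens, 17 rose, all by at least 2-fold, and 1 did not pass, with a median of 4.09. Iigp1 (8.17 ± 0.22), Tgtp1 (8.13 ± 0.29) and Gbp5 (6.15 ± 0.10) were among them. Most members were lower than in LPS (26 of 36 interferon-stimulated genes and 16 of 18 GTPases, with 2 and 0 higher), by medians of -0.27 and -0.52. Ifit1 differed from LPS by -0.77 ± 0.07, and Oasl1 did not pass (-0.03 ± 0.07; edgeR adjusted p = 0.698).

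The 300 bases from 250 before to 50 after a gene's start are given for Cxcl10 and Ifit1 because they hold the letters GAAA, any 2 bases and GAAA again, a core of the element that interferon-activated factors bind, and because both genes stand for lists that rose. The search covered both strands, so a match on the reverse strand reads TTTC, 2 bases and TTTC. The sequences are from RefSeq on the build GRCm38.p6 (the libraries were aligned to mm39, per the submitters' processing notes), written in the direction of the gene with the matching letters in capitals. Cxcl10 lies at chr5:92348840-92349139, minus strand, and Ifit1 at chr19:34640639-34640938, plus strand.
Cxcl10: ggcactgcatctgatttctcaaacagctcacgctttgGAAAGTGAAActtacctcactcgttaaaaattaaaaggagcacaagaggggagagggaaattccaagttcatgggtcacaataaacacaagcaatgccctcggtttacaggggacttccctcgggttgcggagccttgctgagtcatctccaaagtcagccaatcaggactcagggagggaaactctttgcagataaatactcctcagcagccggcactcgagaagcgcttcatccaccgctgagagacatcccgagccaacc
Ifit1: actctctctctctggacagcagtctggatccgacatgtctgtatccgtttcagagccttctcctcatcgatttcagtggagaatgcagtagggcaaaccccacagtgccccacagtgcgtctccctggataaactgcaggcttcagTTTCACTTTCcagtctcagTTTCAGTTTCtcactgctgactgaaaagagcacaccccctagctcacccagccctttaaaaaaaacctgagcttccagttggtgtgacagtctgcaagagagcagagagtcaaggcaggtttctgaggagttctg
The Cxcl10 window holds 1 match and the Ifit1 window 2. Such a match was present in 14 of 29 interferon-stimulated genes with a promoter in the table (48.3%) and in 9 of 10 of the GTPases (90.0%), against 403 of all 9991 tested genes with one (4.03%), 8.02% of the genes higher by at least 2-fold and 2.51% of those lower by at least 2-fold. A match describes the letters and does not show that a factor was bound. The shares in the 2 lists describe the genes chosen for them and are not a result of these libraries.

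Sensors and their signalling parts changed unevenly. Of 33 Toll-like receptors and adaptors 20 rose and 9 fell, 16 and 2 of them by at least 2-fold, or 16 and 14 with library totals alone. Tlr4, the LPS receptor, was at 166, 161 and 148 CPM in Con and at 38.5, 37.1, 32.8, 46.0 and 41.7 CPM in STSABs (-2.01 ± 0.09; edgeR adjusted p = 1.23e-15), below every Con library and below LPS as well (-0.75 ± 0.08). Its co-receptor Cd14 moved the other way, from 149.9, 148 and 151 to 1079, 1425, 957, 1047 and 1002 CPM (2.88 ± 0.17), with replicate 2 the highest. Tlr2, which senses bacterial lipoproteins (1.37 ± 0.05), the adaptor Myd88 (1.88 ± 0.05) and the kinase Ikbke (3.52 ± 0.06) rose, and the flagellin receptor Tlr5 fell (-2.81 ± 0.29). Of 24 NF-kB subunits and inhibitors 23 rose and 0 fell, with a median of 2.38. The median of this list for LPS minus Con was 2.27, and 6 members were higher and 8 lower in STSABs than in LPS. The atypical inhibitor Nfkbiz went from 9.05, 10.4 and 9.69 to 358, 347, 393, 349 and 378 CPM (5.23 ± 0.09), the deubiquitinase Tnfaip3 rose by 4.66 ± 0.11 and the subunit precursor Nfkb1 by 2.38 ± 0.05. Feedback inhibitors of cytokine and MAP kinase signalling rose in 26 and fell in 8 of 35 members. The interleukin-1 receptor antagonist Il1rn (4.25 ± 0.09) and the MAP kinase phosphatase Dusp2 (7.68 ± 0.19) rose, while Spry1 (-2.77 ± 0.33), an inhibitor of growth factor signalling, fell. Zfp36l2, which promotes decay of mRNAs with AU-rich elements, was at 257, 267 and 256 CPM in Con and at 29.5, 30.1, 28.8, 26.5 and 28.9 CPM in STSABs (-3.18 ± 0.05). Among 22 AP-1 and EGR factors 13 rose and 6 fell, 12 and 5 by at least 2-fold, with a median of 1.32. Nr4a3 (3.84 ± 0.07) and Batf (4.38 ± 0.13) rose, and the growth factor-induced Egr1 (-2.44 ± 0.14) and Egr2 (-2.59 ± 0.08) fell. Against LPS 14 of these 22 factors were higher and 2 lower, Egr1 among the higher ones (1.02 ± 0.15).

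Several genes of macrophage identity fell, while of 12 macrophage markers 5 rose and 6 fell. Csf1r, the receptor for the macrophage growth factor CSF1, was at 809.9, 771 and 793 CPM in Con and at 179, 202, 172, 185 and 186 CPM in STSABs (-2.10 ± 0.08; edgeR adjusted p = 1.44e-16), with no overlap and below LPS (-0.46 ± 0.07). Cebpa (-3.29 ± 0.09) and Klf4 (-3.30 ± 0.12), factors of myeloid and monocyte development, fell, and Irf8, a factor of monocytes and dendritic cells, rose (3.36 ± 0.11). Over 35 myeloid transcription factors 20 rose and 14 fell, 9 and 10 by at least 2-fold, with a median of 0.34. The counts of calls turned to 11 higher and 18 lower with library totals alone. The lectin receptors Mrc1 (-0.89 ± 0.07) and Mgl2 (-1.35 ± 0.08), both used as markers of alternative activation, were lower. Of 31 such markers 12 rose and 16 fell, 5 and 13 by at least 2-fold, with a median of -0.46. Arg1, the arginase of alternatively activated and tissue-repair macrophages, was at 37.1, 39.3 and 32.5 CPM in Con and at 111, 223, 88.0, 85.2 and 103 CPM in STSABs (1.75 ± 0.36; edgeR adjusted p = 0.000146), highest in replicate 2. Without replicate 2 it differed by 1.41, and it was also above LPS (1.38 ± 0.30).

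Genes of antigen presentation through MHC class I rose, and those of class II were mixed. Of 22 genes of MHC class I presentation 20 rose and 0 fell, 19 by at least 2-fold, with the peptide transporter Tap1 at 2.57 ± 0.06 and the class I transactivator Nlrc5 at 3.65 ± 0.07. The class I median was 1.79, beside 1.81 for LPS minus Con, and 1 member was higher and 10 lower in STSABs than in LPS. Of 20 genes of MHC class II and co-stimulation 13 rose and 6 fell, 6 and 1 by at least 2-fold, with a median of 0.61. The counts of calls turned to 8 higher and 10 lower with library totals alone. The co-stimulatory ligands Cd80 (3.21 ± 0.06) and Cd86 (2.4 ± 0.06) and the checkpoint ligand Cd274, which encodes PD-L1, rose, the last from 173, 176 and 176 to 1560, 1606, 1714, 1742 and 1682 CPM (3.25 ± 0.07). Cd40, the receptor through which T cells activate macrophages, was at 7.35, 6.5 and 6.65 CPM in Con and at 1127, 903, 1193, 1055 and 1079 CPM in STSABs (7.29 ± 0.14; edgeR adjusted p = 5.95e-22). The invariant chain gene Cd74 was higher by 0.81 ± 0.07, but with library totals alone it did not pass (0.12). The TNF superfamily rose in 14 and fell in 7 of 21 members, 12 and 3 by at least 2-fold, with a median of 2.0. Its rises were led by Tnfsf15 (7.32 ± 0.18), Cd40 and the death ligand Tnfsf10 (6.87 ± 0.14). The summed level of dendritic cell markers rose with these genes (4 of 6 tested called higher and 2 lower, with Xcr1 and Siglech too low to test), and their part was not tested.

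Nos2, the inducible nitric oxide synthase, had the largest log2 fold change among tested genes with more than 3 counts in Con. It was at 0.579, 1.26 and 0.687 CPM in Con and at 2968, 3167, 2762, 2968 and 2944 CPM in STSABs (11.77 ± 0.26; edgeR adjusted p = 8.32e-21), so that even the highest Con library was far below every STSABs library. The arginine transporter Slc7a2 (3.39 ± 0.11) and Gch1 (2.44 ± 0.06), which makes a cofactor of nitric oxide synthase, rose with it. The polyamine enzymes Srm (-1.5 ± 0.12) and Amd1 (-1.57 ± 0.07) fell, and Amd1 was also below LPS (-1.16 ± 0.06). Acod1, which makes itaconate from a tricarboxylic acid cycle intermediate, was at 29.5, 27.2 and 29.7 CPM in Con and at 2565, 2247, 2329, 2603 and 2504 CPM in STSABs (6.41 ± 0.08), below LPS (-0.68 ± 0.05). Of 24 genes of the prostaglandin and leukotriene pathway, enzymes and receptors, 7 rose and 12 fell, 5 and 9 by at least 2-fold, with a median of -0.35. Cyclooxygenase 2 (Ptgs2) rose from 0.507, 0.469 and 0.47 to 501, 424, 553, 704 and 625 CPM (10.17 ± 0.26) and prostaglandin E synthase (Ptges) by 5.25 ± 0.22. Thromboxane synthase (Tbxas1, -2.63 ± 0.09) and leukotriene A4 hydrolase (Lta4h, -1.19 ± 0.04) fell. Iron genes showed hepcidin (Hamp) raised from 1 count in Con to 27.7, 26.4, 29.1, 23.2 and 27.8 CPM, a ratio of 2227 (95% counting interval 399 to 88019). The ferritin subunit Fth1 rose (2.05 ± 0.14), and the transferrin receptor Tfrc (-2.83 ± 0.10) and the haemoglobin scavenger receptor Cd163 (-3.96 ± 0.39) fell.

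Genes for the recognition and uptake of apoptotic cells split almost evenly, with 18 of 35 higher and 15 lower, 11 and 6 by at least 2-fold, and the balance turned to 15 and 16 with upper-quartile scaling and to 12 and 20 with library totals alone. Mertk, a receptor kinase that binds dying cells through bridging proteins, was at 124, 128 and 123 CPM in Con and at 362, 277, 394, 406 and 401 CPM in STSABs (1.56 ± 0.12; edgeR adjusted p = 2.81e-11), lowest in replicate 2 but above every Con library, and it was below LPS (-0.58 ± 0.09). The phosphatidylserine binder Anxa5 (1.14 ± 0.06) and the scramblase Xkr8 (3.75 ± 0.08), which exposes phosphatidylserine on dying cells, rose. Among the members that fell were the phosphatidylserine receptor Cd300a (-2.55 ± 0.11), the integrin subunit Itgb5 (-1.84 ± 0.09) and Dock1, which drives the engulfing membrane (-1.68 ± 0.08). Receptors for lipid mediators and purines also split, with 17 of 34 higher and 14 lower, 11 and 8 by at least 2-fold, and a median of 0.28. With library totals alone 11 were higher and 20 lower. Lpar5, a receptor for lysophosphatidic acid, was at 12.4, 12.6 and 12.6 CPM in Con and at 0.174, 0, 0.12, 0.351 and 0.117 CPM in STSABs (-6.29 ± 0.26; edgeR adjusted p = 6.09e-16), and Vipr1, a receptor for vasoactive intestinal peptide, also fell (-5.79 ± 0.16). The adenosine receptor Adora2a (4.90 ± 0.09) and the formyl peptide receptors Fpr1 (2.92 ± 0.08) and Fpr2 (2.4 ± 0.06) rose.

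Fatty acid amide and endocannabinoid genes bear on the lipid named in the series title, and 7 of 22 rose and 12 fell, 4 and 7 by at least 2-fold, with a median of -0.52. Faah, the hydrolase that cleaves fatty acid amides, was at 0.543, 0.614 and 0.687 CPM in Con and at 66.2, 51.1, 65.3, 55.6 and 64.6 CPM in STSABs (6.61 ± 0.17; edgeR adjusted p = 1.92e-19). The 3 Con libraries were all below 1 CPM, and all 5 STSABs libraries lay above all 5 LPS libraries, which were at 24.0, 23.4, 21.1, 22.9 and 22.2 CPM (STSABs minus LPS 1.41 ± 0.09; edgeR adjusted p = 4.18e-11). Naaa, the lysosomal amidase that prefers palmitoylethanolamide, moved down, from 653, 739.9 and 709 to 246, 204, 241, 234 and 238 CPM (-1.59 ± 0.07). Daglb, a diacylglycerol lipase that makes the endocannabinoid 2-arachidonoylglycerol, was at 61.6, 75.1 and 66.4 CPM in Con and at 3.3, 3.4, 3.65, 3.8 and 2.53 CPM in STSABs (-4.34 ± 0.10; edgeR adjusted p = 2.33e-20). The cannabinoid receptor Cnr2 went from 49.5, 47.5 and 47.9 to 5.74, 6.32, 4.85, 5.2 and 4.17 CPM (-3.20 ± 0.08). The lipid carrier Fabp4 rose (2.54 ± 0.30), with its lowest treated value in replicate 2, and was below LPS (-1.05 ± 0.22). STSABs and Con did not overlap in Faah, Naaa, Daglb, Cnr2 or Fabp4.

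Cholesterol genes rose in 15 and fell in 6 of 26 members, 9 and 2 by at least 2-fold, with a median of 0.49. With library totals alone 10 rose and 12 fell. The isomerase Idi1 was at 25.7, 24.2 and 22.1 CPM in Con and at 355, 279, 325, 338 and 353 CPM in STSABs (3.78 ± 0.14; edgeR adjusted p = 9.43e-17), and Pmvk, another enzyme of the mevalonate pathway, rose (2.52 ± 0.10). Dhcr7, a late enzyme of cholesterol synthesis, went down from 13.8, 14.4 and 18.8 to 2.03, 2.55, 2.22, 2.05 and 2.06 CPM (-2.84 ± 0.12). Against LPS 19 members were higher and 1 lower. PPAR targets and fatty acid oxidation genes fell in 20 and rose in 8 of 29 members, with a median of -0.57. Ppargc1b, a coactivator of mitochondrial genes, was at 14.3, 16.6 and 17.5 CPM in Con and at 0.579, 0.547, 0.958, 0.76 and 0.235 CPM in STSABs (-4.70 ± 0.21). The acyl-CoA synthetase Acsl1 rose against that balance (2.49 ± 0.09). Lipin 1 (Lpin1, -3.38 ± 0.09) and the desaturases Fads1 (-3 ± 0.09) and Scd2 (-1.76 ± 0.05) fell from Con, but all were above LPS (Lpin1 1.11 ± 0.12, Fads1 0.68 ± 0.11, Scd2 1.77 ± 0.05).

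Hypoxia-inducible genes outside glycolysis rose in 25 and fell in 6 of 41 members, 18 and 2 by at least 2-fold, and were 19 higher and 20 lower with library totals alone. Nos2 is one of them. Vegfa, which encodes a growth factor for blood vessels, was at 101, 102 and 99.6 CPM in Con and at 349, 595, 351, 321 and 338 CPM in STSABs (1.95 ± 0.22; edgeR adjusted p = 2.98e-08). STSABs replicate 2 was far above the other 4, and all 5 were above Con and above LPS, which was at 65.2, 97.2, 94.0, 80.4 and 113 CPM. Bnip3, a mitophagy receptor, was at 48.7, 57.8 and 46.5 CPM in Con and at 142, 132, 141, 125 and 141 CPM in STSABs (1.42 ± 0.11), with LPS on the other side of Con at 18.4, 25.9, 26.2, 21.3 and 32.8 CPM (STSABs minus LPS 2.45 ± 0.10; edgeR adjusted p = 8.52e-14). Ndrg1 (2.74 ± 0.09), the collagen-modifying enzymes P4ha1 (1.5 ± 0.06) and Plod2 (6.79 ± 0.27), and Hif1a itself (1.32 ± 0.12) rose, while Narf (-1.47 ± 0.08) and Epas1 (-1.38 ± 0.26) fell. Against LPS 33 of 41 members were higher and 3 lower, with a median of 0.75. Glycolysis and glycogen genes rose in 28 and fell in 5 of 37 members, with a median of 0.91, but in 18 and 14, with a median of 0.21, with library totals alone. Pfkfb3, which makes the activator of phosphofructokinase, went from 48.1, 52.9 and 54.5 to 388, 398, 425, 391 and 403 CPM (2.95 ± 0.11), and Hk3 (1.78 ± 0.07), Pfkp (1.73 ± 0.07) and the hexose transporter Slc2a6 (2.80 ± 0.07) rose. The muscle-type phosphofructokinase Pfkm (-1.12 ± 0.12) and Ldhb (-0.99 ± 0.12) fell. Replicate 2 was the highest treated library in Vegfa but not in Bnip3.

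Windows of the same length are given for Bnip3 and Ddit4, a hypoxia- and stress-induced inhibitor of mTORC1, because both genes were above Con and above LPS and their windows hold ACGTG, the core letters of the hypoxia response element. Both strands were searched, and the letters overlap those of the E-box CACGTG, which reads the same on both strands and so counts as 2 matches in Bnip3. Bnip3 lies at chr7:138909457-138909756, minus strand, and Ddit4 at chr10:59951721-59952020, minus strand, both from RefSeq on GRCm38.p6, with the matches in capitals.
Bnip3: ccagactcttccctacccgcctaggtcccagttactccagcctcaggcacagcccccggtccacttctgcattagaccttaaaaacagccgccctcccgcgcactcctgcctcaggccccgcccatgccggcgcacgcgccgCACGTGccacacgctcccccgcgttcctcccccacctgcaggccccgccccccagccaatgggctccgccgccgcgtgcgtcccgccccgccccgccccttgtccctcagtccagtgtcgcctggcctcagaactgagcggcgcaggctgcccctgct
Ddit4: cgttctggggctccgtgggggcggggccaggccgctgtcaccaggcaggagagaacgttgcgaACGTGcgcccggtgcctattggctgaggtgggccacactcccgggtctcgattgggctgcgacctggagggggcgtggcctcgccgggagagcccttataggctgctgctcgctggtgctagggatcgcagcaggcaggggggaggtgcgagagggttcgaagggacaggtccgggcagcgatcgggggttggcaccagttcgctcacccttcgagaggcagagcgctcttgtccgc
ACGTG was found in 22 of 33 hypoxia-inducible genes with a promoter in the table (66.7%) and in 21 of 36 glycolysis genes (58.3%), against 2908 of all 9991 (29.1%), 26.0% of the genes higher by at least 2-fold and 29.4% of those lower. It was also found in 15 of 33 ribosome biogenesis genes (45.5%), a list in which most members fell. Here too the shares in the lists describe the genes chosen for them and are not a result of these libraries.

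Amino acid response genes and targets of the transcription factor ATF4 fell in 24 and rose in 12 of 39 members, with a median of -0.58. The isoleucyl-tRNA synthetase Iars was at 111, 113 and 106 CPM in Con and at 13.8, 15.5, 13.1, 13.7 and 14.7 CPM in STSABs (-2.96 ± 0.07; edgeR adjusted p = 1.04e-20), and the proline synthesis gene Aldh18a1 (-2.31 ± 0.08) and the glutamine transporter Slc1a5 (-2.05 ± 0.08) fell. Ppp1r15a, which restores translation after stress, rose (2.03 ± 0.08). Yet 29 of 39 members were above LPS and 6 below. Unfolded protein response genes rose in 22 and fell in 3 of 28, 12 and 2 by at least 2-fold, with a median of 0.68. With library totals alone 12 rose and 12 fell. The median of this list for LPS minus Con was 0.7, and 3 members were higher and 12 lower in STSABs than in LPS. The chaperone Hspa5 rose (459, 401 and 419 CPM in Con, 1773, 1510.2, 1722, 1816 and 1739.8 in STSABs, 2.01 ± 0.08). The heat shock protein Hspa1a rose by 6.20 ± 0.22. NRF2 targets and redox genes rose in 24 and fell in 10 of 37, 14 and 6 by at least 2-fold, but in 17 and 16, 5 and 9 by 2-fold, with library totals alone. Sod2 (3.39 ± 0.07), the mitochondrial superoxide dismutase, and thioredoxin Txn1 (1.97 ± 0.06) rose. Subunits of oxidative phosphorylation changed little: 45 of 77 were higher and 12 lower, but 1 by 2-fold, Cycs (1.32 ± 0.07), and their balance turned to 20 and 28 with upper-quartile scaling and to 2 and 57 with library totals alone.

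Proliferation genes fell. Of 36 mitosis genes 33 fell and 1 rose, 27 by at least 2-fold, with a median of -1.48, and of 41 genes of DNA replication and S phase 36 fell and 4 rose, with a median of -0.96. Both lists were also lower in LPS than in Con, with medians for LPS minus Con of -1.7 and -0.96. Set beside LPS, 10 mitosis genes were higher and 3 lower in STSABs, and 11 S phase genes were higher and 7 lower. Cyclin A2 (Ccna2) was at 71.3, 70.8 and 66.9 CPM in Con and at 18, 17.4, 19.2, 18.8 and 17.4 CPM in STSABs (-1.94 ± 0.07; edgeR adjusted p = 9.43e-17), with no overlap. Racgap1 (-2.20 ± 0.10), needed for cell division, the checkpoint target Cdc20 (-1.89 ± 0.08), the replicative helicase subunits Mcm2 (-1.64 ± 0.07) and Mcm7 (-1.61 ± 0.07) and ribonucleotide reductase Rrm2 (-1.41 ± 0.07) fell. The exception in the mitosis list was Pttg1, which encodes securin: it rose from 13.6, 12.2 and 11.9 to 188, 167, 182, 171 and 173 CPM (3.81 ± 0.07; edgeR adjusted p = 9.28e-22), under all 4 scalings. Gins2 (1.35 ± 0.09) and Rfc3 (1.33 ± 0.08) rose against the S phase list. Among regulators of G1, cyclin D2 (Ccnd2) went from 100, 102 and 101 to 2169.6, 2365, 2366, 2457 and 2463 CPM (4.55 ± 0.07), the kinase inhibitors Cdkn1a (2.55 ± 0.09) and Cdkn1b (1.95 ± 0.05) rose, and Cdk4 fell (-1.53 ± 0.07). Cdkn1b was at 45.4, 45.7, 46.9, 43.5 and 44.6 CPM in LPS, below every STSABs library (STSABs minus LPS 1.30 ± 0.04).

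Genes that build ribosomes fell, while the direction of ribosomal protein genes depended on the scaling. Of 38 ribosome biogenesis factors 35 fell, 26 by at least 2-fold, with a median of -1.65. Nop58, a core protein of the box C/D snoRNPs that methylate ribosomal RNA, was at 32.1, 30.1 and 29.3 CPM in Con and at 4.23, 5.53, 5.81, 6.26 and 4.88 CPM in STSABs (-2.51 ± 0.10; edgeR adjusted p = 1.85e-16). Nop58 in LPS lay between, at 15.0, 13.7, 14.5, 13.3 and 14.9 CPM, with no overlap among Con, LPS and STSABs. Its partner Nop56 (-1.99 ± 0.07), Nolc1 (-1.81 ± 0.07) and Nob1 (-2.14 ± 0.08), which cleaves the precursor of 18S ribosomal RNA, fell. The 2 members called higher, Wdr43 (0.28 ± 0.08) and Nop10 (0.21 ± 0.10), overlapped Con and were lower with library totals alone (-0.41 and -0.48). Against LPS 34 of 38 were lower and 2 higher, with a median of -0.83. Of 79 cytosolic ribosomal proteins 66 were higher and 0 lower with TMM, none by 2-fold (median 0.33, highest Rps29 at 0.99 ± 0.15), but 0 were higher and 66 lower with library totals alone. Against LPS 77 of 79 were higher and 0 lower, with a median of 0.28. The proteasome list was higher in 29 and lower in 1 of 34 members, 7 and 0 by at least 2-fold, with a median of 0.46. With library totals alone 10 were higher and 20 lower.

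**Figure D4:**
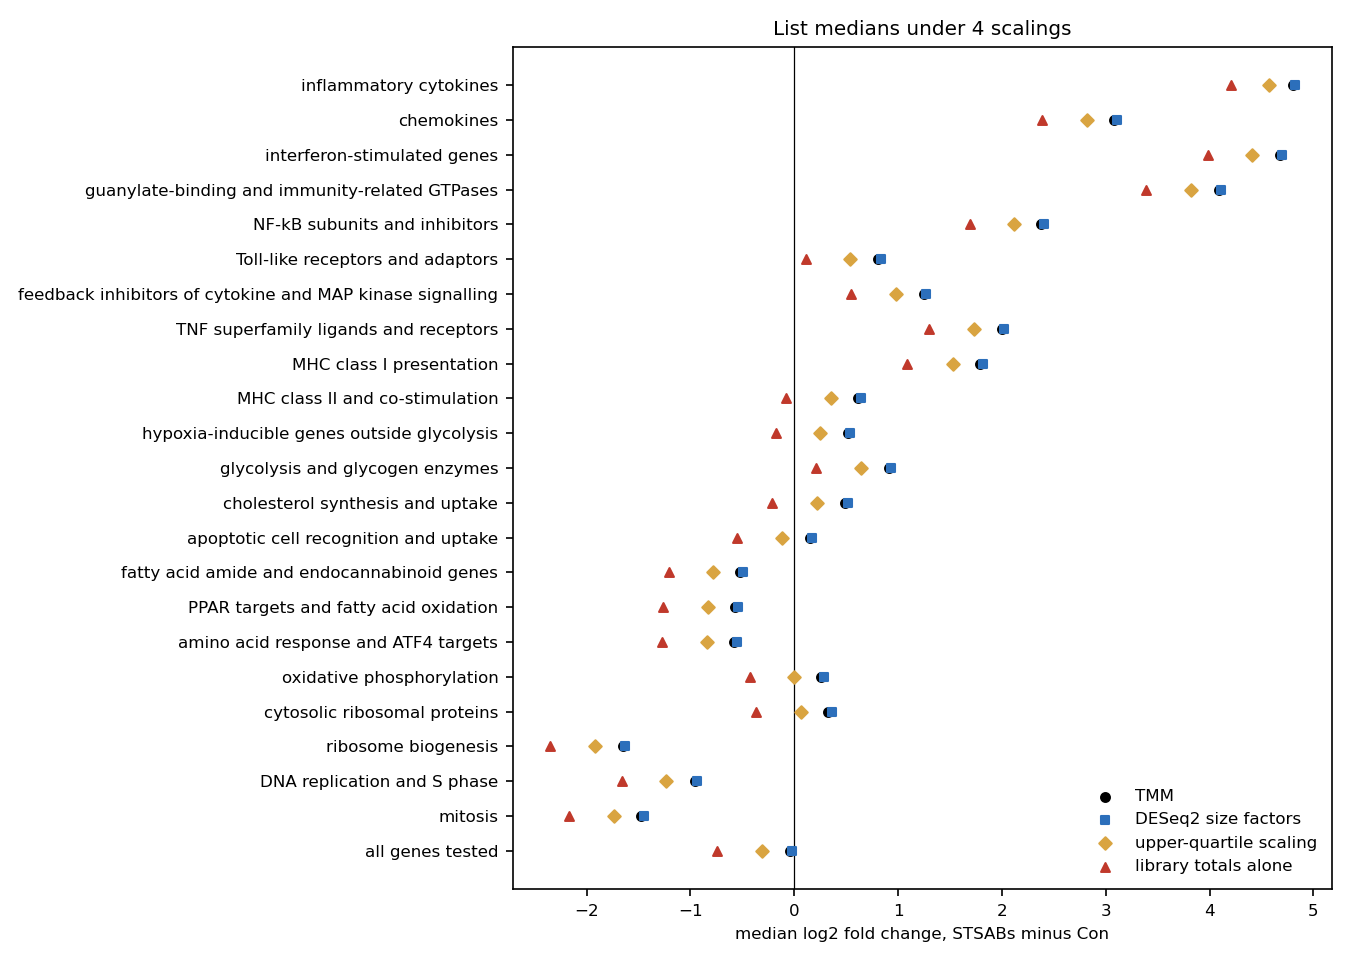
Median log2 fold change of STSABs minus Con (x axis) over the tested members of each list (y axis) under TMM (circles), DESeq2 size factors (squares), upper-quartile scaling (diamonds) and library totals alone (triangles). The inflammatory lists stay right of 0 and the ribosome biogenesis, S phase and mitosis lists left of 0 under all 4, while lists with medians near 0, such as ribosomal proteins (0.33 with TMM), change side.

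Among single genes that reached 5 CPM in one group and whose groups did not overlap, the 10 largest fitted increases were Nos2, Coch, Nts, Cxcl10, Plat, Il10, Hamp, Il12b, Itgb8 and Ptgs2. Fitted values of genes with few counts in Con depend on the prior count of the fit, so ratios are given for those. Coch, which encodes the secreted protein cochlin, had 1 count in Con and was at 53.6, 61.9, 55.2, 46.7 and 52.0 CPM in STSABs, a ratio of 4466 (95% counting interval 801 to 176425). Nts, which encodes neurotensin, had 0 counts in Con and 17.1, 11.7, 17.0, 18.3 and 16.2 CPM in STSABs, at least 445-fold higher. Plat, tissue plasminogen activator, was at 0.0724, 0.181 and 0.0362 CPM in Con and at 183, 219, 179, 168 and 171 CPM in STSABs (10.80 ± 0.20; edgeR adjusted p = 4.42e-22), above LPS as well (1.35 ± 0.08). The integrin subunit Itgb8, which activates transforming growth factor beta, had 3 counts in Con and 46.7, 50.3, 53.3, 64.9 and 62.6 CPM in STSABs, a ratio of 1538 (526 to 7459). The 10 largest fitted decreases by the same rule were Lpar5, Pald1, Vipr1, Cep131, Kcnj10, Aatk, Nanos1, Kcnk13, Syde2 and Cand2, between -6.29 and -5.04. Pald1, a phosphatase-like protein, was at 101, 109 and 118 CPM in Con and at 1.51, 1.7, 0.898, 1.4 and 2.06 CPM in STSABs (-6.17 ± 0.14). Cep131, a centrosome protein, went from 40.2, 43.2 and 37.0 to 0.811, 1.03, 1.08, 0.76 and 0.529 CPM (-5.57 ± 0.13), and the potassium channels Kcnj10 (-5.27 ± 0.18) and Kcnk13 (-5.14 ± 0.17) and the kinase Aatk (-5.19 ± 0.13) also fell. By difference in CPM, Ccl22, Fth1, Actb, Cd74, Ccl5, Rsad2, Il1b, Cxcl10, Helz2 and Fgl2 gained most. Fgl2, a fibrinogen-like protein that restrains T cells, was at 159, 154 and 147 CPM in Con and at 3233, 2723, 3606, 3376 and 3528 CPM in STSABs (4.43 ± 0.14), and beta-actin (Actb) rose by 1.87 ± 0.07. The largest losses in CPM included Psap (-0.23 ± 0.07), Ccl6, Mgl2, Csf1r, Ccr2, Naaa, the Rab regulator Gdi2 (-1.41 ± 0.05), the matrix protein Tgfbi (-1.77 ± 0.16) and galectin 3 (Lgals3, -0.24 ± 0.07).

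In 191 genes (1.53%) the STSABs level was at least 2-fold above both Con and LPS, and in 109 (0.874%) at least 2-fold below both, called in each comparison. The plot of 20 such genes gives both differences, which share the STSABs libraries. STSABs was not tested against UVABs here, so whether these differences are particular to STSABs was not tested. The 10 higher genes described here were Ddit4, Gdf11, Hilpda, Gls2, Grasp, Heatr9, Ramp3, Vegfa, Armcx6 and Coch. Ddit4 was at 2.03, 2.17 and 2.96 CPM in Con, 1.86, 2.12, 1.04, 1.44 and 2.88 CPM in LPS and 18, 41.2, 13.7, 11.0 and 14.5 CPM in STSABs (STSABs minus Con 3.04 ± 0.49; STSABs minus LPS 3.39 ± 0.47; edgeR adjusted p = 6.84e-06 and 2.43e-06). Con and LPS overlapped each other, and every STSABs library lay above both. Hilpda, a lipid droplet protein that inhibits triglyceride breakdown, was at 4.49, 5.02 and 5.28 CPM in Con and at 44.0, 87.5, 39.7, 42.6 and 39.1 CPM in STSABs, and the glutaminase Gls2 at 0.688, 0.469 and 0.542 and 18, 40.2, 14.9, 14.9 and 17.7 CPM. In both, replicate 2 was the highest of the treated libraries. Gdf11, a ligand of the TGF-beta family, was at 0.217, 0.181 and 0.217 CPM in Con and at 5.21, 6.26, 4.67, 3.86 and 5.11 CPM in STSABs (4.57 ± 0.25). Heatr9 (5.00 ± 0.17) and Armcx6 (6.36 ± 0.40) had their lowest treated values in replicate 2. Ramp3, an accessory protein of the calcitonin receptor family, was at 6.81, 7.76 and 8.13 CPM in Con and at 23.3, 85.1, 20.4, 18.9 and 21.6 CPM in STSABs (2.16 ± 0.56; edgeR adjusted p = 0.00125). Without replicate 2 its differences fell to 1.47 from Con and 1.27 from LPS. Leaving out that library gave 168 genes above both and 101 below both.

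The 10 genes named below both groups were Tsr1, Tsr2, Pprc1, Gpatch4, Noc3l, Wdr75, Nop58, Gnl3, Prmt3 and Usp10. Tsr1, Noc3l, Wdr75, Nop58 and Gnl3 are on the ribosome biogenesis list: Tsr1 is known as a factor of the small subunit, Noc3l of the large subunit and Wdr75 of ribosomal RNA transcription, and Gnl3 encodes nucleostemin, a nucleolar GTPase. Tsr1 was at 31.0, 26.9 and 25.9 CPM in Con, 16.0, 13.3, 13.5, 14.2 and 16.1 CPM in LPS and 4.46, 3.65, 4.55, 6.14 and 4.88 CPM in STSABs (STSABs minus Con -2.56 ± 0.11; STSABs minus LPS -1.62 ± 0.11; edgeR adjusted p = 1.93e-15 and 9.02e-11). Con, LPS and STSABs did not overlap, and STSABs was the lowest of them. Gnl3 fell from 22.1, 20.6 and 18.5 CPM in Con to 4.34, 3.59, 4.13, 3.68 and 3.23 CPM in STSABs (-2.42 ± 0.12), and Wdr75 (-2.36 ± 0.10), Noc3l (-1.72 ± 0.11), Tsr2 (-2.30 ± 0.15) and Gpatch4 (-2.13 ± 0.14) fell too. Prmt3, an arginine methyltransferase of a ribosomal protein (-2.50 ± 0.12), the deubiquitinase Usp10 (-1.88 ± 0.10) and Pprc1, a coactivator related to PGC-1 (-1.89 ± 0.09), were the others. In Pprc1 (24.3, 27.7 and 28.5 CPM in Con, 6.84, 7.05, 7.19, 6.96 and 8.28 in STSABs, 20.1, 20.4, 20.2, 21.2 and 23.3 in LPS) the LPS libraries lay nearer to Con than to STSABs.

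**Figure D5:**
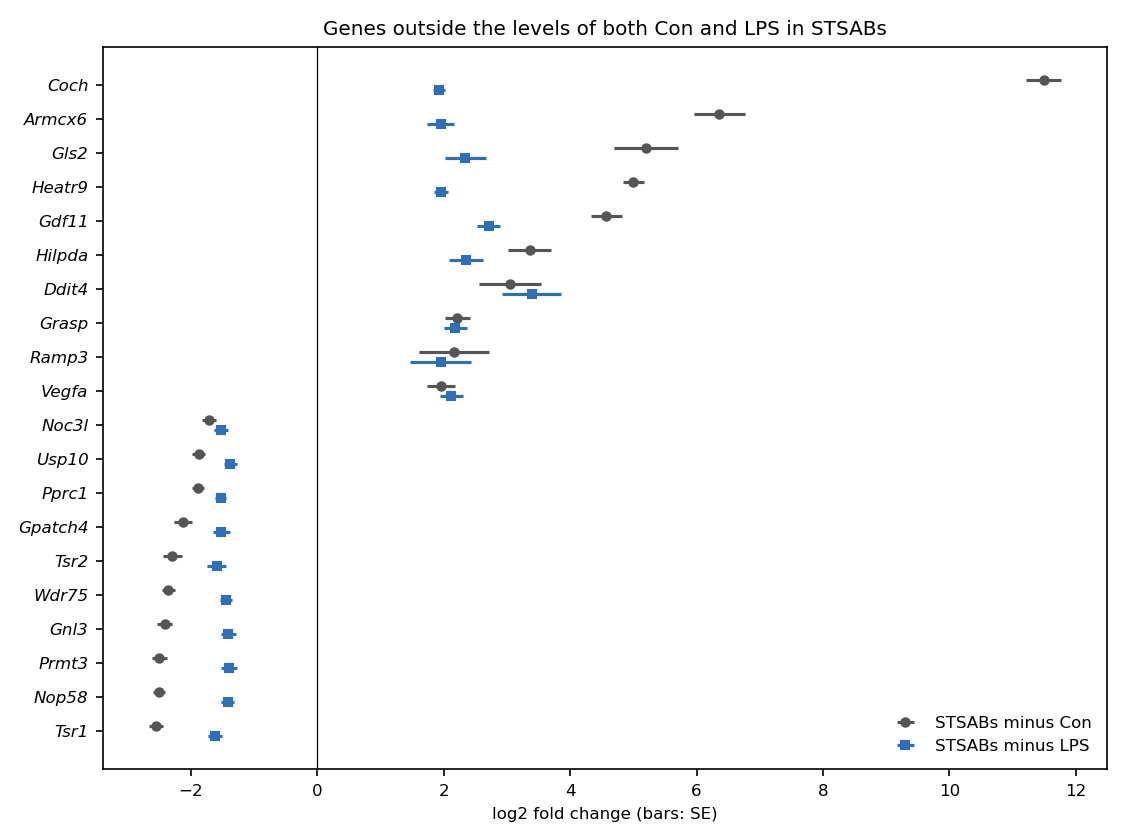
Log2 fold change (x axis, bars show the SE) of 20 genes that were called and at least 2-fold different in the same direction against Con (grey circles) and against LPS (blue squares). The 10 lower genes lie between -1.38 and -2.56, and among the 10 higher genes Ramp3 and Ddit4 have wide errors (SE 0.56 and 0.49 against Con).

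Genes that mark other cell types were followed beside these results. The neutrophil markers S100a8 (266, 286 and 255 CPM in Con and 946, 1213, 982, 938 and 1034 in STSABs, 1.93 ± 0.12), S100a9 (1.54 ± 0.14), Ngp (1.80 ± 0.15) and Camp (1.52 ± 0.12) rose, and 8 of 9 tested members of that list were higher. Retnlg was the member on the other side (-0.61 ± 0.25), in groups that overlapped. All 9 tested neutrophil markers were above LPS, S100a8 by 0.91 ± 0.09. Hdc, the histidine decarboxylase that makes histamine in mast cells and basophils and is also inducible in macrophages, was at 24.1, 27.6 and 25.3 CPM in Con and at 634, 810.5, 621, 576 and 619.7 CPM in STSABs (4.67 ± 0.11), and Gata2, a factor of mast cells and progenitors, rose by 1.48 ± 0.16. Fcer1a, which defines mast cells and basophils, was too low to test. Of 7 tested stromal markers 3 were called higher, 0 lower and 4 did not pass. Thy1 rose (1.32 ± 0.18), with replicate 2 the highest. The stromal sum was higher in LPS too (19.5 to 24.2 CPM, against 11.3 to 12.9 in Con). Also above Con in LPS were the sums for dendritic cells (5398 to 5848 CPM), neutrophils (1813 to 2526) and mast cells and basophils (526 to 579). The same held for endothelial cells and platelets (661 to 749 CPM) and erythroid cells (7.29 to 11.1). LPS overlapped STSABs in the stromal and dendritic sums and lay below STSABs in the others named here. The part of such cells in the differences above was not tested.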

How the data were processed

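Poly(A) RNA of bone marrow macrophages was sequenced in 18 libraries, and reads were aligned with HISAT2 to mm39, per the submitters' processing notes. The authors deposited estimated counts per gene symbol, of which 6.35% were not whole; how they were counted, with which annotation and whether by strand, is not given in the sources used here. They were rounded and tested in edgeR 4.0.16 (R 4.3.3) with TMM scaling, all 18 libraries in 1 fit with a mean per group, the quasi-likelihood F-test and Benjamini-Hochberg adjustment at 0.05. A filter by group kept 12465 of 16909 genes and 99.97% of counts. CPM use the TMM-scaled library sizes.

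Alternatives were other scalings, filters, groups and replicates, unrounded counts, DESeq2 1.42.0 and limma-voom (limma 3.58.1). The test was also run on simulated counts in which few genes changed, as many up as down. Most genes were called in the real libraries, so that run could not check the scaling. The members and the 58 gene lists were chosen with earlier results of these data known. Of 1493 list genes 1450 matched by symbol and 25 by a RefSeq synonym. Genes are named by a rule: the 10 largest log2 fold changes and the 10 largest CPM differences in each direction, the 10 in each direction that also differ from LPS by 2-fold, up to 4 per list with the smallest adjusted p and up to 2 against the list's majority, and a panel of 20 activation genes; not all that qualify are named. Fold changes are differences of log2 means with the SE of the fit. Deviations of same-numbered libraries correlated between -0.0423 and 0.0158 for STSABs and Con, so replicate numbers were not taken as pairs. Promoter sequences are RefSeq's on GRCm38.p6 and were used for their letters only.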

Additional observations from a re-analysis of the deposited data

Results flagged for a closer look

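Of the 186 genes named, 22 had an STSABs library far from the other 4, and in 19 of them it was replicate 2. A library counts as far when its gap to the nearest of the others, as a share of the range of all 5, passes Dixon's 95% critical value, which chance alone does in about 1 in 20 groups; the genes named are not independent, so no number expected by chance is set against this count. Values are given against the range of the other 4 libraries. Of the genes above both Con and LPS, Vegfa was at 595 against 321 to 351 CPM, Ddit4 was at 41.2 against 11.0 to 18 CPM and Hilpda was at 87.5 against 39.1 to 44.0 CPM. Of the same genes, Gls2 was at 40.2 against 14.9 to 18 CPM, Ramp3 was at 85.1 against 18.9 to 23.3 CPM and Grasp was at 27.7 against 15.8 to 18.6 CPM. Among activation genes, Cd14 was at 1425 against 957 to 1079 CPM, Arg1 was at 223 against 85.2 to 111 CPM and Ptges was at 67.3 against 48.2 to 53.4 CPM. Markers used for other cell types were high there as well: Hdc was at 810.5 against 576 to 634 CPM, Gata2 was at 88.6 against 47.8 to 57.8 CPM and Thy1 was at 30.6 against 13.9 to 18.6 CPM. In the cytoskeleton and matrix, Actb was at 11640.0 against 9294 to 9926 CPM and Tgfbi was at 277 against 183 to 197 CPM. Of genes that fell from Con, Cd300a was at 16.0 against 10.4 to 11.2 CPM. Low in replicate 2 were Tnf (292 against 399 to 419.5 CPM), Il12b (1621 against 3190.5 to 3399 CPM), Naaa (204 against 234 to 246 CPM) and Armcx6 (7.6 against 11.6 to 12.7 CPM), of which Naaa had fallen from Con and the others had risen. Another library stood apart in Pprc1 (STSABs replicate 5, 8.28 against 6.84 to 7.19 CPM), Prmt3 (STSABs replicate 3, 2.28 against 1.87 to 1.94 CPM), Epas1 (STSABs replicate 3, 0.24 against 0.409 to 0.463 CPM). None of these libraries overlapped Con. What sets replicate 2 apart was not tested.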

How the results depend on the processing

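Of 12 counts of called genes, all except 4 stayed within 1.5 times of their value under every alternative. The 4 exceptions came with library totals alone, which gave 2510 genes higher and 8511 lower than Con, 1411 and 5009 of them by at least 2-fold; the cause was not tested. The reversed genes were Wdr43 (-0.41) and Nop10 (-0.48) with library totals alone, and Nop10 (-0.05) with upper-quartile scaling; the cause was not tested. Leaving out any 1 Con or STSABs library gave 4836 to 4965 genes higher and 5172 to 5326 lower than Con. No paired design was established: with the replicate block 5016 genes were higher and 5324 lower, and for STSABs against LPS 7431 were called against 7158. DESeq2's own test called 5262 higher and 5235 lower, and limma-voom 4992 and 5356. Genes with few counts in Con limit the precision of the largest increases, and the counting intervals given cover counting error only.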
